A study of Mus musculus with 12 samples.

Results

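The step from the DN4 to the DP stage was compared between wild-type (WT) and Ikaros-deficient (IkL/L) mouse thymocytes. For each gene, the change from DN4 to DP in WT cells was subtracted from the same change in IkL/L cells, which gives an interaction on the log2 scale: a positive value means that the step ended relatively higher in IkL/L cells, a negative one that it ended relatively lower. The comparison used all 34958 probe sets that carry 1 gene symbol, of 45099 on the array, and rested on the 8 DN4 and DP arrays of the 12 in the series. The groups were WT DN4, WT DP, IkL/L DN4 and IkL/L DP cells, with 2 arrays each. All were sorted from thymus, no treatment or age is given in the labels, and the cells of 3 mice were pooled for sorting. The 4 DN3 arrays entered only the estimate of the spread. Whether the arrays of a group came from separate pools is not stated, so the p-values measure only the spread between these arrays. That spread may be technical, except in the IkL/L DN4 and DP groups, whose replicates differed in Y-linked signal.

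DN4 cells carry neither co-receptor and have just passed the checkpoint that selects for a working T cell receptor beta chain. They divide, leave the cell cycle, and become DP cells, which carry both CD4 and CD8 and recombine the receptor alpha chain. Ikzf1 encodes Ikaros, a lymphoid DNA-binding protein with zinc fingers that recognises a core written TGGGAA and recruits chromatin complexes such as NuRD. It is known in thymocytes as a repressor of Notch target genes and as a factor needed for orderly passage through these stages. The IkL allele is known as a hypomorph, which lowers Ikaros without removing it.

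The promoters of Syt14, Rangrf and Med12l are shown because these genes kept their differences in every setting tried, and because they stand for a step that was larger, smaller and opposite in IkL/L cells. Each runs 5′ to 3′ on the gene's strand from 250 bases before to 50 after the start, as given by RefSeq for GRCm38.p6, with any TGGGAA or its reverse complement TTCCCA in capitals. The windows are chr1:193035726-193036025 on the minus strand for Syt14, chr11:68973806-68974105 on the minus strand for Rangrf and chr3:59006728-59007027 on the plus strand for Med12l.
Syt14: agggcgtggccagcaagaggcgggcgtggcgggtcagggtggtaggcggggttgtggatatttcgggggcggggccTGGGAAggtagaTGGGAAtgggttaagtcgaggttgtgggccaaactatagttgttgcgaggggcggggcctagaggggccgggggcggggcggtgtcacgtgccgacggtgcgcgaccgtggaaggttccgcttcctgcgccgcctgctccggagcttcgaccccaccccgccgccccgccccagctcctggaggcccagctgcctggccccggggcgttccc
Rangrf: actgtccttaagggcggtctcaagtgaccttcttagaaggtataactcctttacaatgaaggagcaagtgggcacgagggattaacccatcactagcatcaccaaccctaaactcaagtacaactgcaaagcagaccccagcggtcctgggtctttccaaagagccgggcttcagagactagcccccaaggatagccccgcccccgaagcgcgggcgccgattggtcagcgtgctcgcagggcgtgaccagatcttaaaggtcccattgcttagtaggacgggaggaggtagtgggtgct
Med12l: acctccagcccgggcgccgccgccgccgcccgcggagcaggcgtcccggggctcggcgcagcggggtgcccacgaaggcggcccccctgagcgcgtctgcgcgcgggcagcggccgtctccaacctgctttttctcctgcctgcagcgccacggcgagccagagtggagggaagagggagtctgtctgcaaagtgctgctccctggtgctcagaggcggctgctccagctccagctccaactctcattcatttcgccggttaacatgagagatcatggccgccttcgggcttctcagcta
Syt14 held the motif 2 times on its own strand, and the letters are not in the windows of Rangrf and Med12l. Among all 32851 promoters in the table, 25.6% held it. Of the 59 promoters found for 42 of the 53 genes that passed the test, 11 held it (18.6%). A match is a run of letters and was not tested for binding.

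Array medians lay between 5.14 and 5.22 and the 75th percentiles between 7.34 and 7.57 on the log2 scale, and arrays of a group correlated with r of 0.988 to 0.996 across probe sets. A signal under the array median can be largely background, and differences that start or end there may understate the change in RNA. Markers of the DP stage followed the labels: the mean of Cd4, Cd8a, Cd8b1 and Rag1 was 8.28 to 8.81 on the DN4 arrays and 12.3 to 12.7 on the DP arrays of both genotypes. The mean of the DN3 markers Il2ra, Ptcra and Cdh1 was 6.49 and 6.70 in WT DN4 and 5.43 and 5.86 in WT DP cells. In IkL/L cells it was 6.09 and 6.19 in DN4 and 5.99 and 6.21 in DP, so it did not fall clearly there. Over these arrays B cell markers averaged 4.45 to 4.79, myeloid markers 4.76 to 5.78, dendritic markers 5.80 to 6.70 and erythroid markers 4.40 to 6.24. The IkL/L replicate 2 arrays stood apart by their Y-linked genes, whose mean was 3.45 in DN4 and 3.28 in DP cells, against 7.51 and 7.68 on replicate 1. By this measure the IkL/L DN4 and DP replicates differed in sex, so the spread within these groups includes that difference. Replicate 1 of IkL/L DN4 had raised Alas2 (8.64), a heme synthesis gene of red cell precursors, and S100a8 (7.09), a neutrophil gene. On IkL/L DP replicate 2 S100a8 read 6.43, against 4.68 on replicate 1 and 5.09 and 5.52 in WT DP cells. In bulk samples, fewer cells of a type and less RNA per cell cannot be told apart.

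The step of Ikzf1 itself was not called different between the genotypes. Its brighter probe set read 11.78 and 11.88 in WT DN4, 12.30 and 12.40 in WT DP, 11.22 and 11.18 in IkL/L DN4, and 11.75 and 11.56 in IkL/L DP cells. The IkL/L arrays lay below the WT arrays at each stage, and the step was 0.52 in WT and 0.46 in IkL/L cells, with an interaction of -0.07 ± 0.15 (SE; limma adjusted p = 0.903). A dimmer probe set, at or above the array median on all 8 arrays, stepped by -0.90 in WT and -0.10 in IkL/L cells (interaction 0.80, adjusted p = 0.16). The direction of the WT step of Ikzf1 thus differed between its probe sets. The position of these probe sets relative to the allele's alteration is not given in the sources used here.

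Most of the normal step was taken in IkL/L cells as well. A call means a limma p under 0.05 after Benjamini-Hochberg adjustment over all probe sets tested. The WT step was called for 6807 of 18194 genes (37.4%; 2731 up, 15%, and 4076 down, 22.4%), each gene standing at its brightest probe set. The IkL/L step was called for 5013 genes (27.6%; 2157 up, 11.9%, and 2856 down, 15.7%). In probe sets these were 12663 (36.2%) and 8823 (25.2%). Of the 4420 genes called in both, 4407 moved the same way. Genes that rose in WT had a median step of 0.95 there and 0.69 in IkL/L cells, and 97.7% had the same sign; those that fell had -0.82 and -0.66, and 93.1% had the same sign. Genes chosen by their rise in IkL/L cells instead had a median of 0.86 there and 1.05 in WT, and those chosen by their fall -0.92 and -1.02. The steps of the genotypes share no arrays, but a list chosen on 1 of them takes up that step's error, so these medians are a description.

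The genotypes differed in the step for 53 genes (0.291%), of which 39 ended higher in IkL/L cells (0.214%) and 14 lower (0.0769%). In probe sets there were 80 of 34958 (0.229%), 50 higher (0.143%) and 30 lower (0.0858%). Of all 18194 genes, 2236 lay at an unadjusted p under 0.05, the share to set beside such counts in the gene lists below. The called interactions of the 53 genes, at the brightest probe set, ran in size from 1.02 to 3.24. The median standard error was 0.20 over all probe sets, so smaller differences were mostly not detectable with 2 arrays a group. The 2387 genes called in WT and not in IkL/L cells are therefore no list of failed steps: 9 of them had a called interaction. All 53 had single-array steps that did not overlap between genotypes, as did 27.8% of all genes.

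The 53 were sorted by the IkL/L step as a share of the WT step. A step was blunted where the share was 0.25 to 1 (17 genes), lost where it was -0.25 to 0.25 (8), reversed below -0.25 (8) and exaggerated above 1 (9). It was gained where the step was called in IkL/L cells and not in WT (11). Blunted, lost and reversed steps comprised 11, 5 and 6 normal falls against 6, 3 and 2 normal rises. Falls also prevailed among all called steps, with 4076 of 6807 in WT and 2856 of 5013 in IkL/L cells. Exaggerated and gained steps were mostly rises, 8 of 9 and 9 of 11. The interaction shares its arrays with both steps, so error in either step bears on the classes. Error that enlarges the WT step moves genes toward the blunted and lost classes. Error that enlarges the IkL/L step or shrinks the WT step moves genes toward the exaggerated and gained classes.

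**Figure D1:**
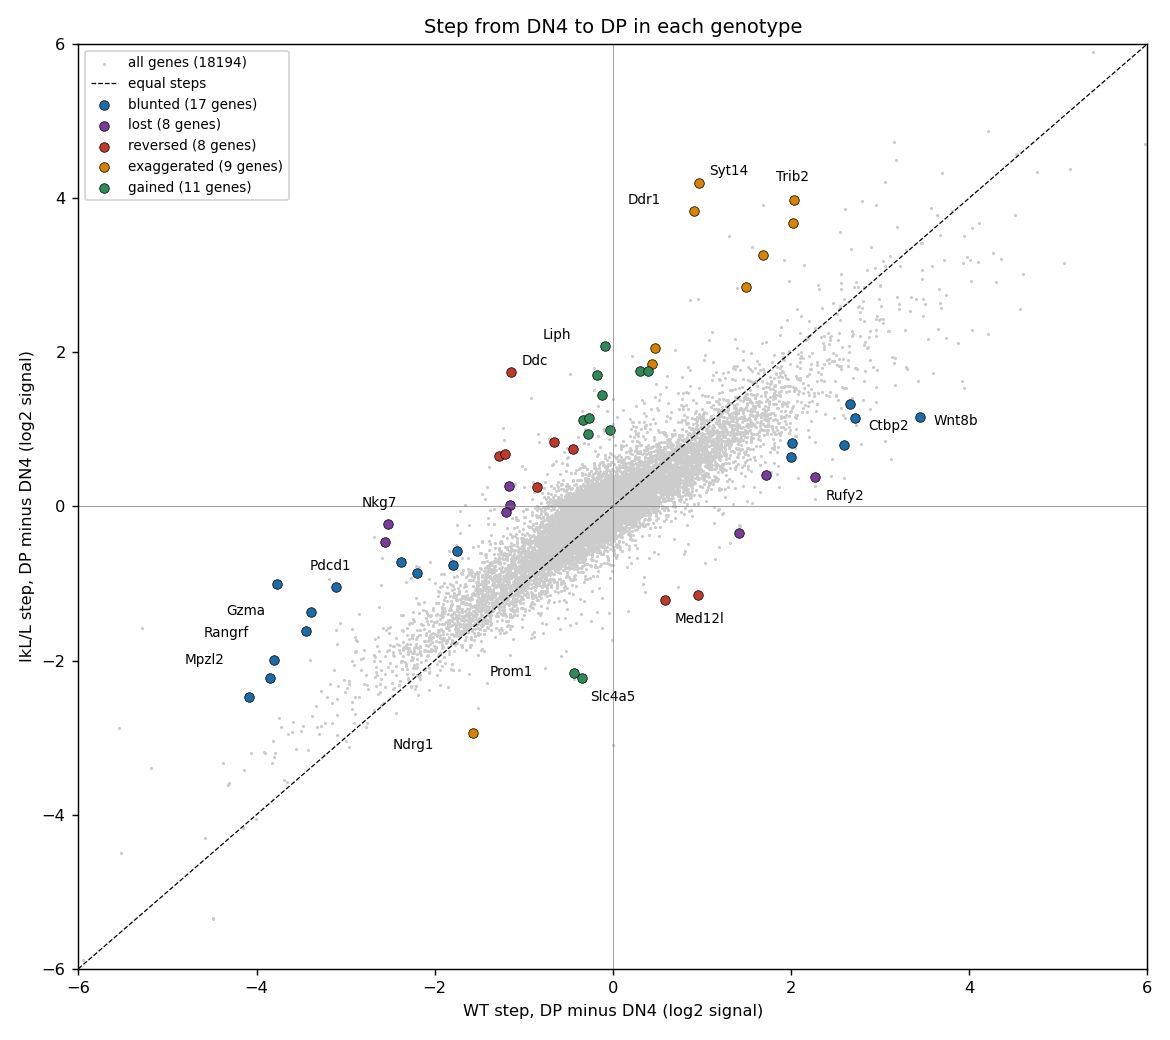
The step from DN4 to DP in WT (x axis) and IkL/L cells (y axis), in log2 signal, for all 18194 genes in grey and the 53 called genes coloured by class. The cloud lies along the dashed line of equal steps; the called genes lie off it, 39 above and 14 below.

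The number of calls rested on single arrays. Without WT DN4 replicate 2 there were 7 genes and without IkL/L DN4 replicate 2 there were 8. The other counts were 17 without replicate 1 of either DN4 group, 19 without IkL/L DP replicate 2, 30 without WT DP replicate 1 or either WT DN3 array, 70 without WT DP replicate 2 or IkL/L DP replicate 1, and 108 without either IkL/L DN3 array. Without all 3 IkL/L replicate 2 arrays 11 were called. With the replicate number as a random block within genotype 82 were called. Leaving out WT DN4 replicate 2 ended the calls of 15 of 17 blunted, 8 of 8 lost, 6 of 8 reversed, 8 of 9 exaggerated and 9 of 11 gained genes. Leaving out IkL/L DN4 replicate 2 ended 14, 8, 7, 8 and 8 of them. The sign of all 53 was kept in each of these fits and in every alternative setting. Their single-array steps did not overlap between genotypes, so leaving out arrays could not have changed the sign. Syt14, Liph, Rangrf and Med12l kept their calls without each of the 12 arrays, and of these Liph did not without the 3 IkL/L replicate 2 arrays together.

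Among the falls that were blunted were those of Rangrf, Gzma, Pdcd1 and Mpzl2. Rangrf, which encodes a Ran-binding cofactor that also assists a sodium channel, read 10.22 and 10.15 in WT DN4, 6.80 and 6.68 in WT DP, 9.94 and 10.13 in IkL/L DN4 and 8.45 and 8.39 in IkL/L DP cells. The genotypes differed by -0.15 in DN4 (adjusted p = 0.476), and both IkL/L DP arrays lay above both WT DP arrays. The signal fell 10.9-fold in WT and 3.06-fold in IkL/L cells, an interaction of 1.83 ± 0.16 (adjusted p = 0.00219). Gzma, a granzyme of cytotoxic cells, read 12.81 and 12.62 in WT DN4 and 12.71 and 12.89 in IkL/L DN4 cells, then 9.61 and 9.04 in WT DP and 11.41 and 11.46 in IkL/L DP cells. DN4 levels overlapped and DP levels did not. The fall was 10.5-fold in WT and 2.58-fold in IkL/L cells (interaction 2.03 ± 0.26, adjusted p = 0.0152).

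Pdcd1, which encodes the inhibitory receptor PD-1, read 8.89 on both WT DN4 arrays, 5.66 and 5.91 in WT DP, 8.08 and 7.95 in IkL/L DN4 and 6.81 and 7.13 in IkL/L DP cells. It began lower and ended higher in IkL/L cells, and the groups did not overlap at either stage. The fall was 8.61-fold in WT and 2.06-fold in IkL/L cells (interaction 2.06 ± 0.29, adjusted p = 0.0237). Mpzl2, a homophilic adhesion molecule of thymocytes and epithelia, read 7.69 and 8.12 in WT DN4 and 4.24 and 3.96 in WT DP, but 10.30 and 10.33 in IkL/L DN4 and 8.44 and 8.21 in IkL/L DP cells. IkL/L cells were higher throughout, and the WT DP arrays lay below the array median, so the WT fall may be understated. The falls were 14.0-fold in WT and 3.98-fold in IkL/L cells (interaction 1.81 ± 0.22, adjusted p = 0.0121). Its other bright probe sets differed: 1 gave 0.59 (adjusted p = 0.329) and the other -0.74 (adjusted p = 0.199), and with the mean of its probe sets the call was lost.

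Rises that were blunted were led by Wnt8b, a secreted Wnt ligand. It read 5.05 and 5.07 in WT DN4, 8.27 and 8.75 in WT DP, 6.38 and 6.86 in IkL/L DN4 and 7.62 and 7.93 in IkL/L DP cells. The IkL/L arrays were higher in DN4 and lower in DP, with no overlap at either stage. The rise was 10.9-fold in WT and 2.23-fold in IkL/L cells (interaction -2.29 ± 0.34, adjusted p = 0.0266), and a second probe set of the gene gave -1.21 (adjusted p = 0.021). Ctbp2, a corepressor, read 4.97 and 4.85 in WT DN4, 7.65 and 7.61 in WT DP, 6.43 and 6.31 in IkL/L DN4 and 7.42 and 7.61 in IkL/L DP cells. The genotypes differed by -0.11 in DP (adjusted p = 0.862), and the IkL/L cells were above WT by 1.46 in DN4 (interaction -1.58 ± 0.19, adjusted p = 0.0121). Another bright probe set of Ctbp2 did not show the rise, with steps of -0.01 in WT and -0.48 in IkL/L cells (interaction -0.47, adjusted p = 0.423). The pattern of Cd1d2, a lipid-presenting molecule related to CD1d, was the other way round from that of the brightest Ctbp2 set. It read 5.57 to 5.75 on the 4 DN4 arrays, 7.45 and 7.97 in WT DP and 6.27 and 6.34 in IkL/L DP cells, so the genotypes parted at DP (interaction -1.36 ± 0.22, adjusted p = 0.046). Pgm2l1, which makes a sugar bisphosphate, rose 4.03-fold in WT and 1.76-fold in IkL/L cells (interaction -1.19 ± 0.19, adjusted p = 0.0415). Among the 8 named blunted genes Rangrf kept its call without each array, and the others lost it without up to 9 of the 12 arrays in turn (adjusted p up to 0.222). Pgm2l1, like Mpzl2, was not called with the mean of its probe sets.

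A step was lost for genes of several functions. Nkg7, a granule membrane protein of cytotoxic and NK cells, read 7.53 and 7.92 in WT DN4, 5.31 and 5.09 in WT DP, 5.34 and 5.52 in IkL/L DN4 and 5.07 and 5.34 in IkL/L DP cells. Its WT level fell 5.75-fold, whereas in IkL/L cells the DN4 arrays were already near the DP level (step -0.22, adjusted p = 0.579). The interaction was 2.30 ± 0.32 (adjusted p = 0.0205). Tktl1, a transketolase-like gene, read 6.05 and 6.55 in WT DN4 and 3.70 to 4.38 on the other 6 arrays (interaction 2.10 ± 0.26, adjusted p = 0.0121). It was thus above the array median in WT DN4 alone. The remaining lost falls were of Fbxw8, a subunit of a cullin ubiquitin ligase (1.42), the small GTPase gene Rhoq (1.17) and the sorting nexin gene Snx8 (1.12). Another bright probe set of Fbxw8 gave 2.14 (adjusted p = 0.114).

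Lost rises were those of Rufy2 and Fndc3b. Rufy2, an effector of endosomal Rab proteins, read 4.65 and 4.77 in WT DN4, 7.18 and 6.78 in WT DP, 4.80 and 4.82 in IkL/L DN4 and 5.37 and 5.02 in IkL/L DP cells. It rose 4.82-fold in WT, and the IkL/L step of 0.38 was not called (interaction -1.89 ± 0.26, adjusted p = 0.0205). Fndc3b, a fibronectin-domain membrane protein, read 4.86 and 4.68 in WT DN4, 6.34 and 6.05 in WT DP, 6.66 and 6.64 in IkL/L DN4 and 6.16 and 6.44 in IkL/L DP cells. WT DN4 was the group that stood apart, and the other 3 groups lay near each other (interaction -1.77 ± 0.21, adjusted p = 0.012). None of the 7 named lost genes kept its call without each array (lost without 2 to 10 of 12, adjusted p up to 0.224), and Fbxw8 and Rufy2 were not called with the mean of their probe sets.

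In 7 named genes the step ran the other way in IkL/L cells. Ddc, the aromatic amino acid decarboxylase, read 5.51 and 5.66 in WT DN4, 4.33 and 4.56 in WT DP, 4.16 and 3.87 in IkL/L DN4 and 6.12 and 5.39 in IkL/L DP cells. It fell 2.20-fold in WT and rose 3.34-fold in IkL/L cells, and the order of the genotypes turned between the stages (interaction 2.88 ± 0.33, adjusted p = 0.0103). Tesc, a calcium-binding regulator of a sodium-proton exchanger, read 8.02 and 8.30 in WT DN4, 7.0 and 6.91 in WT DP, 8.03 and 7.71 in IkL/L DN4 and 8.40 and 8.72 in IkL/L DP cells. The DN4 groups overlapped, and the DP groups lay 1.60 apart (interaction 1.89 ± 0.25, adjusted p = 0.0152). Smim5, a small membrane protein, fell by 1.28 in WT and rose by 0.65 in IkL/L cells. Plxnb2, a semaphorin receptor (-0.66 and 0.84), and the lactate dehydrogenase gene Ldhd (-0.45 and 0.74) likewise fell in WT and rose in IkL/L cells.

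Reversed rises were of Med12l and Usp53. Med12l, a paralog of a Mediator kinase-module subunit, read 5.39 and 5.28 in WT DN4, 5.84 and 6.02 in WT DP, 7.44 and 7.34 in IkL/L DN4 and 6.13 and 6.22 in IkL/L DP cells. IkL/L cells were above WT on every array, by 2.05 in DN4 (adjusted p = 2.85e-05) and by 0.25 in DP (adjusted p = 0.431). The small WT rise of 0.59 stood against a fall of 1.22 in IkL/L cells (interaction -1.81 ± 0.16, adjusted p = 0.0029). Usp53, a relative of deubiquitinating enzymes that is found at tight junctions, read 5.79 and 5.62 in WT DN4, 6.89 and 6.42 in WT DP, 7.01 and 7.22 in IkL/L DN4 and 5.94 and 5.99 in IkL/L DP cells. The groups did not overlap at either stage (interaction -2.10 ± 0.24, adjusted p = 0.0103). Of the 7 genes, Med12l kept its call without each array, and the rest lost it without up to 7 of 12 (adjusted p up to 0.136). Usp53 was not called with the mean of its probe sets.

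With each gene at its brightest probe set, the largest interaction belonged to Syt14, a synaptotagmin, a family of membrane-trafficking proteins. It read 4.21 and 4.01 in WT DN4, 5.0 and 5.14 in WT DP, 4.34 and 4.51 in IkL/L DN4 and 8.52 and 8.73 in IkL/L DP cells. IkL/L DP was the group that stood apart, and the other 3 lay below the array median. The rise was 1.95-fold in WT and 18.4-fold in IkL/L cells, an interaction of 3.24 ± 0.19 (adjusted p = 0.000157). Ddr1, a receptor tyrosine kinase for collagen, read 5.18 and 5.58 in WT DN4, 5.91 and 6.68 in WT DP, 5.61 and 5.32 in IkL/L DN4 and 9.06 and 9.53 in IkL/L DP cells. DN4 levels overlapped, and IkL/L DP cells stood 3.00 above WT DP cells (interaction 2.91 ± 0.35, adjusted p = 0.0121). Other bright probe sets of Ddr1 gave 2.60 (adjusted p = 0.0652), 0.51, 0.32 and 0.21.

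Trib2, a pseudokinase that acts as a scaffold for protein degradation, took a larger step from a lower start. It read 8.76 and 8.91 in WT DN4, 10.60 and 11.12 in WT DP, 6.35 and 6.37 in IkL/L DN4 and 10.10 and 10.55 in IkL/L DP cells. The gap of -2.48 in DN4 (adjusted p = 0.000182) had shrunk to -0.54 in DP (adjusted p = 0.282), and the interaction was 1.94 ± 0.28 (adjusted p = 0.0256). The beta-tubulin gene Tubb2b, chosen after its values were seen, also took a larger step from a lower start. Its gaps were -2.37 in DN4 and -0.80 in DP, so its mean stayed below WT (interaction 1.58 ± 0.19, adjusted p = 0.0121). The collagen-modifying factor gene P3h4 (1.65) and Tns3, a focal adhesion protein (1.58), rose more in IkL/L cells as well. Ndrg1, a stress- and hypoxia-responsive gene, was the exaggerated fall, 2.97-fold in WT and 7.69-fold in IkL/L cells (interaction -1.37 ± 0.19, adjusted p = 0.0205), and its other bright probe sets gave -1.30 (adjusted p = 0.0141), -1.45 (adjusted p = 0.171), -0.83 (adjusted p = 0.412) and -0.22 (adjusted p = 0.786). Among these 6 named genes Syt14 kept its call without each array, and the others lost it without up to 8 of 12 (adjusted p up to 0.165); Trib2, Tns3 and Ndrg1 were not called with the mean of their probe sets.

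Gained rises were led by Liph, a lipase that releases lysophosphatidic acid. It read 4.22 and 4.69 in WT DN4, 4.45 and 4.29 in WT DP, 4.79 and 4.91 in IkL/L DN4 and 6.89 and 6.97 in IkL/L DP cells. IkL/L DP cells alone were above the median of the array. The gene rose 4.22-fold in IkL/L cells and its WT step was -0.09 (interaction 2.16 ± 0.22, adjusted p = 0.00625). Pwwp3b, a PWWP-domain gene, read 3.11 to 3.51 on the WT arrays, 4.40 and 4.52 in IkL/L DN4 and 6.36 and 5.98 in IkL/L DP cells, so it was higher in IkL/L cells at both stages and rose further (interaction 1.88 ± 0.21). Col1a2, a collagen chain of stroma (1.57), Cpsf4l (1.45) and Rdh10, a retinol dehydrogenase (1.44), were gained rises too. For Col1a2 the stromal markers Col1a1 and Col3a1 read 3.08 to 4.08 over all 8 arrays, and the mean of the 5 stromal markers was 4.85 and 5.0 in IkL/L DP against 5.12 and 4.96 in WT DP cells. Of 18 thymic stroma genes measured, 5 fell and 0 rose in WT, 0 fell and 2 rose in IkL/L cells, and the median interaction was 0.24. Col1a2 was the 1 called, and 5 lay at an unadjusted p under 0.05, beside 2236 of 18194 over all genes. Pdgfrb, a growth factor receptor of mesenchymal cells, had the highest value (2.28, adjusted p = 0.0791). The part of stromal cells in the step of Col1a2 was not tested. A second bright probe set of Rdh10 gave 1.54 (adjusted p = 0.0461).

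Prom1 and Slc4a5 were gained falls. Prom1, the stem-cell surface protein prominin, read 4.45 and 4.78 in WT DN4, 4.46 and 3.91 in WT DP, 7.08 and 6.82 in IkL/L DN4 and 4.93 and 4.66 in IkL/L DP cells. Among the 4 DN4 and DP groups it was above the array median in IkL/L DN4 cells alone, and fell 4.46-fold from there (interaction -1.72 ± 0.27, adjusted p = 0.0415). Slc4a5, a sodium bicarbonate transporter, had the same shape: 3.57 to 4.20 on the WT arrays, 6.24 and 5.85 in IkL/L DN4 and 3.92 and 3.71 in IkL/L DP cells (interaction -1.87 ± 0.23, adjusted p = 0.0133). Of the 7 named gained genes Liph kept its call without each array, and the others lost it without up to 9 of 12 (adjusted p up to 0.224). Col1a2 was not called with the mean of its probe sets.

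**Figure D2:**
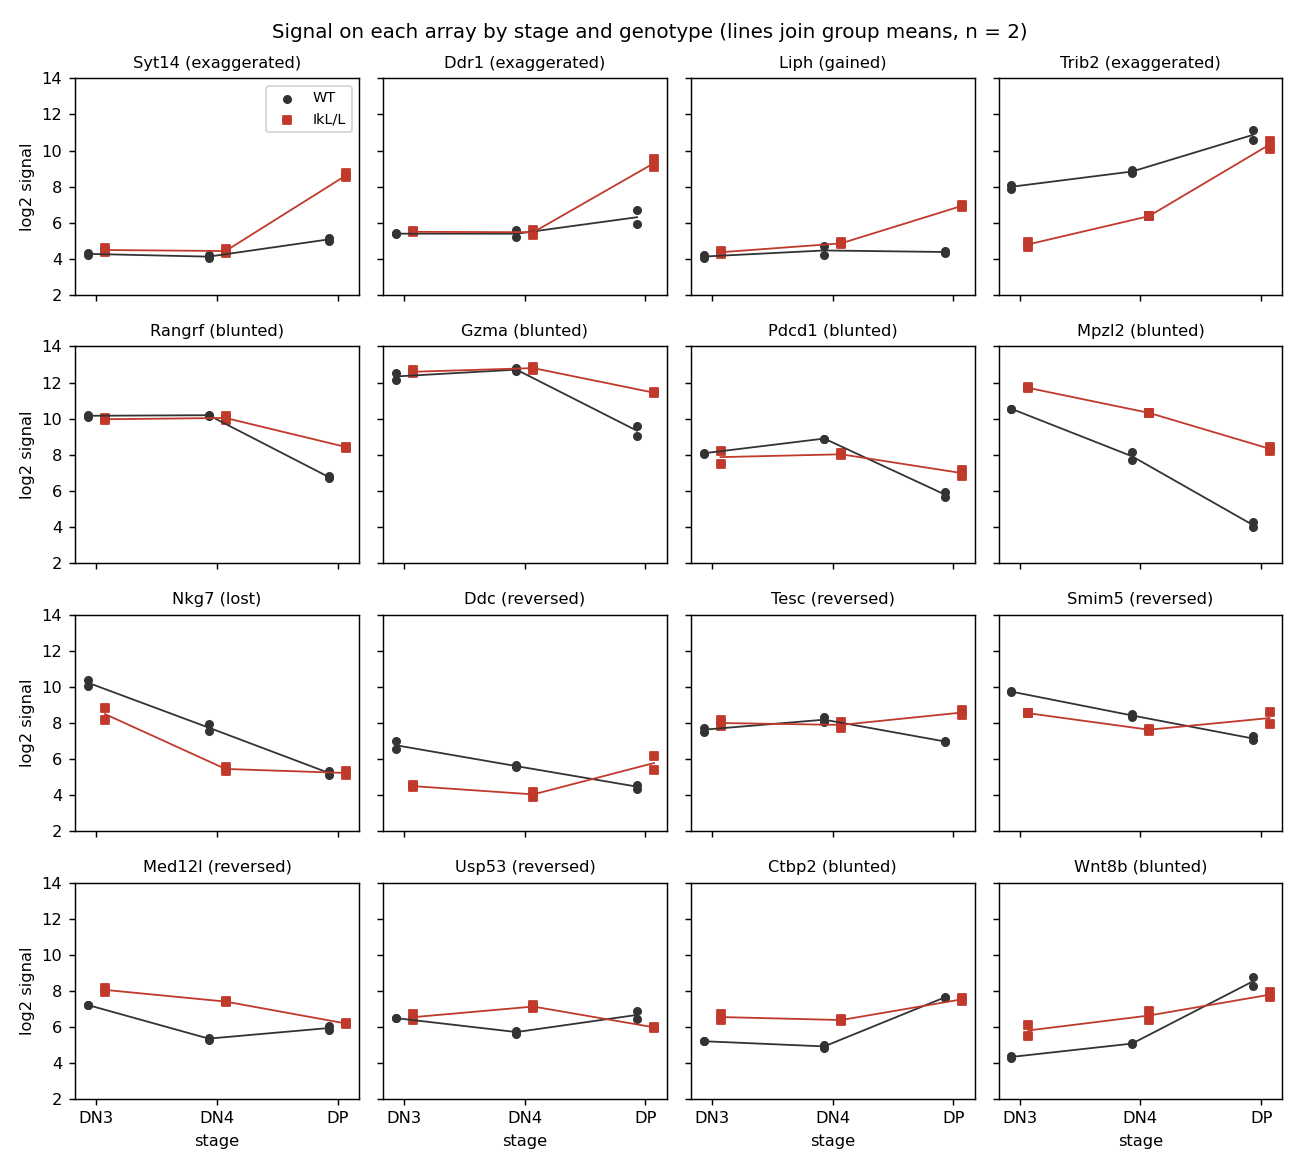
Log2 signal on each array at the DN3, DN4 and DP stages for 16 called genes, with WT as grey circles, IkL/L as red squares and lines through the group means (n = 2). Syt14, Ddr1 and Liph part at DP; Nkg7, Med12l and Trib2 differ before DP and converge there.

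The interaction could come from either end of the step. At DP alone the genotypes were called different, by the same test, for 31 of the 53 genes, at DN4 alone for 16, and at both stages for 6. A stage without a call may still hold a difference. Pdcd1 counted as DP alone with a DN4 gap of -0.87 (adjusted p = 0.0561), and Usp53 as DN4 alone with a DP gap of -0.69 (adjusted p = 0.0691). Over all genes 3.24% differed in DN4 and 2.96% in DP. Of the 31, 26 were higher in IkL/L DP cells and 5 lower. The 16 were divided between 9 higher and 7 lower in IkL/L DN4 cells, and for these the DP levels of the genotypes did not differ by the test. Med12l, Slc4a5, Prom1 and Fndc3b were above WT in DN4 and had lost most of the gap by DP, whereas Nkg7, Tktl1 and Trib2 were below WT in DN4. Ddc was below WT in DN4 (-1.57) and above it in DP (1.31). Mpzl2 and Pwwp3b were above WT at both stages. Below the array median on both arrays were 17 of the 53 genes in WT DP and 6 in IkL/L DP cells, against 14 and 13 in WT and IkL/L DN4 cells.

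**Figure D3:**
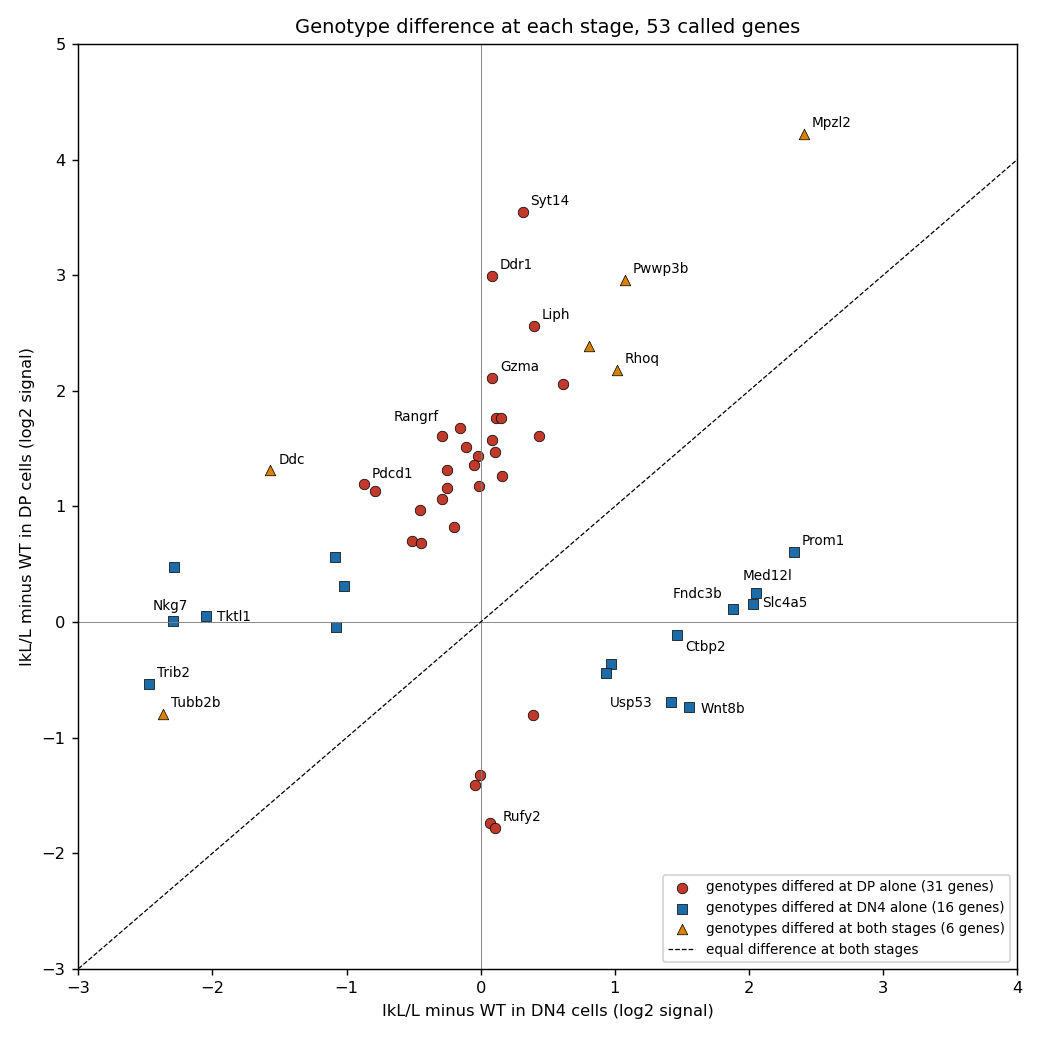
The difference IkL/L minus WT in DN4 (x axis) and in DP cells (y axis), in log2 signal, for the 53 called genes, by the stage at which the genotypes were called different. Among the 31 genes that differed at DP alone the DN4 difference ran from -0.87 (Pdcd1) to 0.62 (Rdh10), and among the 16 that differed at DN4 alone the DP difference ran from -0.73 (Wnt8b) to 0.61 (Prom1); the dashed line marks an equal difference at both stages.

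The core of the DP program was taken up in both genotypes. Of 23 DP stage genes measured, 21 rose in WT and 22 in IkL/L cells, with median steps of 1.98 and 2.02. The interaction was called for 0 of them, and 8 lay at an unadjusted p under 0.05, beside 2236 of 18194 over all genes. Their median interaction was -0.35 against 0.07 over all genes. Values ran from -1.14 to 1.58, the highest being that of Cd8b1, so the 2 genes described next lie on the positive side. Cd8b1, a chain of the CD8 co-receptor, read 9.40 and 9.55 in WT DN4, 12.69 and 12.56 in WT DP, 7.86 and 7.78 in IkL/L DN4 and 12.70 and 12.41 in IkL/L DP cells. It reached the WT level from a lower start, and its interaction of 1.58 (adjusted p = 0.0958; 95% interval 0.86 to 2.30) did not pass. The gut-homing chemokine receptor gene Ccr9 had the same shape (1.28, adjusted p = 0.0573). Exit from the cell cycle was shared too: 36 of 41 DNA replication genes fell in WT and 40 in IkL/L cells (medians -1.42 and -1.51), and 38 of 39 mitosis genes fell in each (-1.14 and -1.12). Of 35 genes of ribosome biogenesis and the Myc network, 30 and 29 fell, with medians of -1.66 and -1.40. In these 3 lists 0 interactions were called. Of their 41, 39 and 35 genes, 4, 1 and 9 lay at an unadjusted p under 0.05, beside 2236 of 18194 over all genes.

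Notch target genes, which are normally shut down on the way to DP, had 0 called interactions. Of 19 measured, 11 fell and 2 rose in WT, and 4 fell and 2 rose in IkL/L cells. Fewer genes fell in IkL/L than in WT cells over all genes too (15.7% against 22.4%). The median interaction was 0.52 against 0.07 over all genes. Of the 19, 8 lay at an unadjusted p under 0.05, beside 2236 of 18194 over all genes. Dtx1, a ubiquitin ligase induced by Notch, read 7.77 and 8.27 in WT DN4, 7.0 and 7.20 in WT DP, 7.98 and 8.46 in IkL/L DN4 and 9.04 and 10.21 in IkL/L DP cells. DN4 levels overlapped, and both IkL/L DP arrays were above WT DP but far from each other (interaction 2.33 ± 0.46, adjusted p = 0.0861). Ptcra, the pre-T cell receptor alpha chain, stepped by -0.99 in WT and 0.25 in IkL/L cells (interaction 1.24, adjusted p = 0.114). Hes1, a repressor directly induced by Notch, fell in both, by 2.34 and 1.82. For 26 DN stage and progenitor genes, which share members with the Notch list, 15 fell in WT and 5 in IkL/L cells (median interaction 0.36), and 0 were called. Of the 26, 9 lay at an unadjusted p under 0.05. Mature T cell genes had the highest median of the lists of cell stages, 0.80 over 19 genes, with 0 called and 6 at an unadjusted p under 0.05. Cd69 (2.20, adjusted p = 0.268) and Runx3 (1.62, adjusted p = 0.103) were the most displaced of these with Gimap4 (1.67).

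Gamma-delta, NK and innate lymphoid genes held 2 called members of 22, Gzma and Nkg7 (0.291% of all genes were called), with a median interaction of 0.32 against 0.07 over all genes. At an unadjusted p under 0.05 lay 10 of the 22, beside 2236 of 18194 over all genes. In WT 11 fell and 1 rose, and in IkL/L cells 7 fell and 0 rose, where 22.4% and 15.7% of all genes fell. The defining markers Sox13, Blk, Nkg7 and Ncr1 are not independent of this list, since Nkg7 is also 1 of its called members. The mean of the markers was 7.08 and 7.42 in WT DN4, 5.90 and 6.08 in IkL/L DN4, and 5.14 to 5.36 on the 4 DP arrays. Sox13 (1.34, adjusted p = 0.135) and Blk (1.58, adjusted p = 0.142) were not called. Ncr1 lay below the array median on all 8 arrays. The part of such cells in the results was not tested. Levels of Gzma in the genotypes overlapped in DN4 cells. Cd163l1, a gamma-delta surface receptor, differed by 3.71 (adjusted p = 0.304) with 5.56 and 9.35 on the IkL/L DP arrays. Over all 35 lists, 5 of 718 genes measured were called, beside 0.291% of all genes, in 4 lists: Pdcd1, Gzma, Nkg7, Mpzl2 and Col1a2. The 23 measured members of the Hox and developmental list, 28 Polycomb subunits and 13 NuRD subunits had 0 called interactions each. At an unadjusted p under 0.05 lay 3, 2 and 2 of them, beside 2236 of 18194 over all genes.

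**Figure D4:**
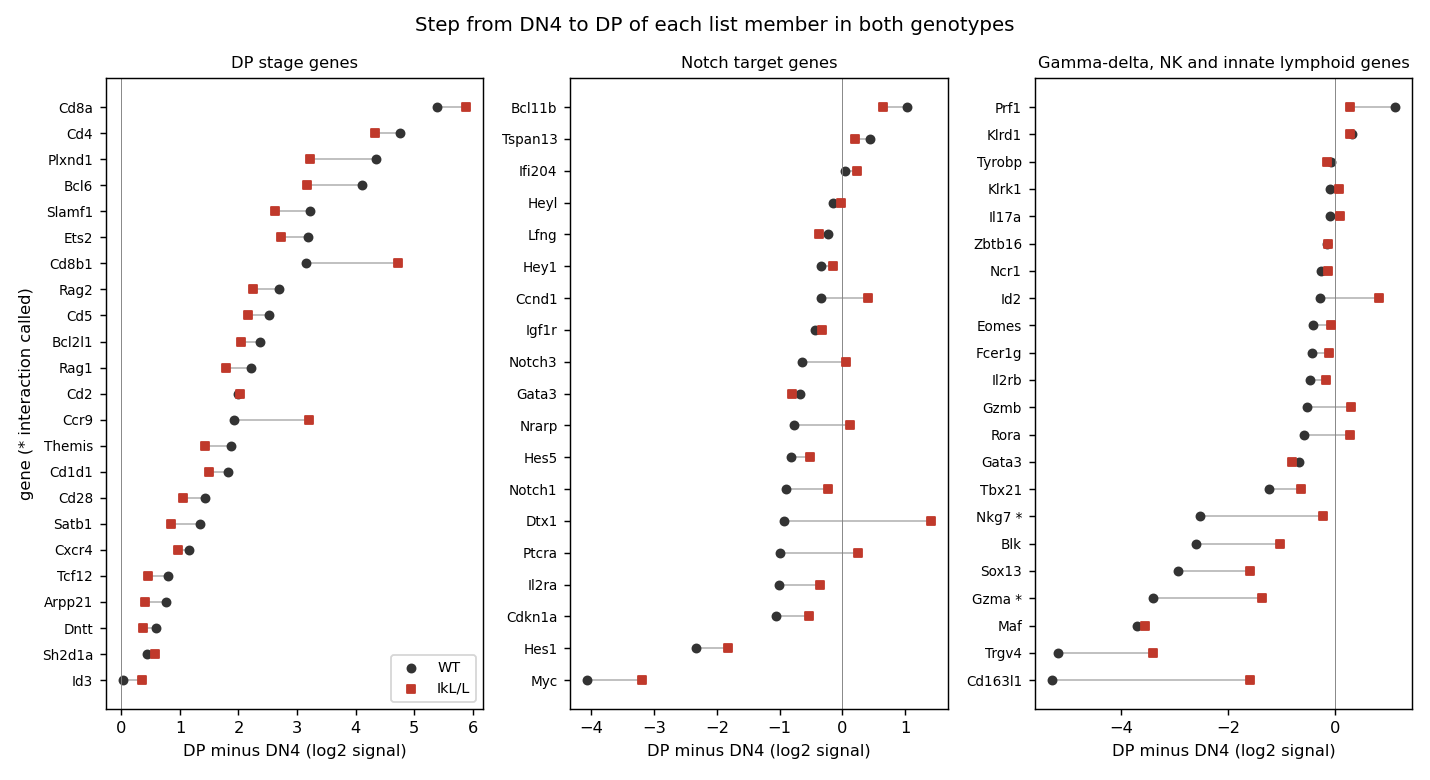
The step from DN4 to DP (x axis, log2 signal) of each measured member of 3 gene lists in WT (grey circles) and IkL/L cells (red squares); an asterisk marks a called interaction. DP stage genes lie to the right in both genotypes, and Notch target genes lie further left in WT than in IkL/L cells in most rows.

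The choice of 1 probe set per gene left some differences aside. Of the 80 called probe sets, 27 were not the brightest of their gene, and 72 genes had at least 1 called probe set. Vldlr, a lipoprotein receptor, was called at its brightest probe set with 1.02 (adjusted p = 0.046) and at another with 3.42 (adjusted p = 0.000157). Fkbp9, a chaperone of the secretory pathway, was called at a dimmer probe set, with steps of -0.12 in WT and -2.43 in IkL/L cells (interaction -2.31, adjusted p = 0.000352). The transcription factor gene Klf7 was blunted at such a probe set, rising by 3.21 in WT and 1.98 in IkL/L cells (adjusted p = 0.0121). These 3 genes were chosen after their values were seen. Of the named genes, 11 had other bright probe sets, 19 in all, of which 17 had the sign of the brightest and 3 were called; the exceptions were 1 set each of Mpzl2 and Tns3.

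Genes on either side of the threshold had close values. Just inside it were Cd1d2, Vldlr and the septin-binding effector gene Cdc42ep4, each at an adjusted p of 0.046. Just outside were the transcription factor gene Nfix (0.0515), Armcx4 (0.0515), Gpx8 (0.0537), Sema4a (0.0573) and Ccdc153 (0.0573). At an adjusted p under 0.1 there were 124 genes.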

How the data were processed

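RNA of sorted thymocytes was labelled with biotin in a protocol with amplification and hybridised to Affymetrix arrays, per the labels' protocols. The authors deposited log2 signals for every probe set, made with RMA per the submitters' processing notes (version not given in the sources used here). RMA corrects background, quantile normalizes probes and summarises each set. Values ran from 2.68 to 14.7, and 75th percentiles differed between arrays. The labels name several labelling series with different RNA amounts without assigning them to samples, so that batch was not tested. Arrays have no read depth; their number limits the precision, and 95% intervals of the interaction reached 0.45 to either side at the median.

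Probe sets took their symbols from the platform table: 34958 had 1, 932 several and 9209 none. Of the 34958, 34754 gene IDs were found in the reference table and 0 symbols changed. Limma 3.58.1 (R 4.3.3; random blocks through statmod 1.5.0) was fitted to all 12 arrays with 1 mean for each of 6 groups, empirical Bayes moderation (6 residual and 4.24 prior degrees of freedom) and no brightness filter. P-values were Benjamini-Hochberg adjusted over the 34958 probe sets, and a call is an adjusted p under 0.05. Every p in the text is limma's. A gene stood at its probe set with the highest mean over the arrays. The scripts were tested on simulated data. Named genes were Ikzf1, the 15 largest interactions in each direction among called genes whose single-array steps did not overlap, the 5 largest per class and direction, and called list members; unnamed transcripts held a place in these counts and were not printed. Genes or list members outside this rule, and the split of calls by stage, were picked with values in view. The members, classes and 35 gene lists were chosen with earlier results of these arrays known. Same-numbered replicates were not treated as paired, since not every correlation of their deviations was over 0.1: of 15 pairs of groups 6 were (range -0.391 to 0.522). Pairs that cross genotypes cannot share mice, so they do not bear on whether the stages of a genotype were paired. Within WT the 3 pairs lay at 0.199 to 0.293. Within IkL/L, where the DN4 and DP replicate 2 arrays shared low Y-linked signal, DN3 with DN4 gave 0.522, DN4 with DP -0.12 and DN3 with DP -0.07. A pairing within genotype may therefore exist and was not settled. With a random replicate block within genotype 82 genes were called.

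The alternatives were brightness filters at the median and 75th percentile, 1 probe set per gene or their mean, a trend and robust prior, array weights, median centring, a second quantile normalization, fixed and random replicate blocks, the 8 arrays alone, a minimum log2 difference of 1, leaving out each array, and leaving out the 3 IkL/L replicate 2 arrays. Promoter sequences are RefSeq's for GRCm38.p6.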

Additional observations from a re-analysis of the deposited data

Results flagged for a closer look

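The genotypes differed in the step from DN4 to DP, by the interaction term itself, for 80 probe sets, and each gene below passed that test at its brightest probe set. Interactions (IkL/L step minus WT step, log2) of blunted steps were 2.06 for Pdcd1, 2.03 for Gzma, 1.83 for Rangrf, 1.81 for Mpzl2, -1.19 for Pgm2l1, -1.36 for Cd1d2, -1.58 for Ctbp2 and -2.29 for Wnt8b. Steps lost in IkL/L cells gave 2.30 for Nkg7, 2.10 for Tktl1, 1.42 for Fbxw8, 1.17 for Rhoq, 1.12 for Snx8, -1.77 for Fndc3b and -1.89 for Rufy2. Reversed steps gave 2.88 for Ddc, 1.92 for Smim5, 1.89 for Tesc, 1.49 for Plxnb2, 1.19 for Ldhd, -1.81 for Med12l and -2.10 for Usp53. Exaggerated steps gave 3.24 for Syt14, 2.91 for Ddr1, 1.94 for Trib2, 1.65 for P3h4, 1.58 for Tns3 and -1.37 for Ndrg1. Steps gained in IkL/L cells gave 2.16 for Liph, 1.88 for Pwwp3b, 1.57 for Col1a2, 1.45 for Cpsf4l, 1.44 for Rdh10, -1.72 for Prom1 and -1.87 for Slc4a5.

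Among the 10141 probe sets without a single symbol, which the comparison left out, 5 were called when all probe sets were fitted together, 1 higher and 4 lower; 63 were called in all in that fit.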

How the results depend on the processing

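With 2 arrays a group, counts of calls moved widely. All 53 genes kept their sign in every fit, but leaving out arrays could not change it, since their single-array steps did not overlap. Syt14, Rangrf and Med12l kept their call in every fit. Leaving out 1 array at a time gave 10 to 201 probe sets for the interaction (6 to 92 higher, 4 to 109 lower), 9394 to 13473 for the WT step and 6347 to 9751 for the IkL/L step. In genes it gave 7 to 108 (4 to 68 higher, 3 to 40 lower), with 2 to 43 blunted, 0 to 16 lost, 1 to 16 reversed, 1 to 16 exaggerated and 2 to 19 gained. In such fits the lone array of a group is assumed to vary like the other groups. Without the 3 IkL/L replicate 2 arrays there were 21 probe sets (12 higher, 9 lower) and 11 genes (8 and 3), in classes of 4 blunted, 1 lost, 3 reversed, 2 exaggerated and 1 gained. The filter at the 75th percentile, which drops dim probe sets, left 33 probe sets (22 and 11), 26 genes (20 and 6), 2 lost, 3 reversed and 1 gained, and 8029 for the WT step. With 1 probe set per gene fitted, 114 genes were called (77 and 37): 48 blunted, 19 lost, 15 reversed and 18 exaggerated. Averaging probe sets within a gene gave 90 genes, 35 of them lower, 38 blunted and 14 lost; 38 of the 53 kept their call. A second quantile normalization gave 128 probe sets (89 higher) and 81 genes (66 higher), 30 blunted and 18 lost. The replicate block gave 48 genes and 75 probe sets, with 7 gained. A random replicate block within genotype (consensus correlation 0.0796) gave 136 probe sets (76 and 60) and 82 genes (25 lower), 32 blunted, 13 lost and 15 exaggerated. Requiring a log2 difference of 1 gave 5572 and 3645 for the WT and IkL/L steps, 3 reversed and 5 exaggerated. The 8 arrays alone gave 5 lost and 7 gained, median centring 4 lost, array weights 46 lower probe sets and the trend and robust prior 47. The cause of these shifts was not tested beyond the number of features or arrays in a fit. The median interaction over probe sets was between -0.04 and 0.07 in all settings.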

Other observations

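Lists with 0 called interactions included several with many members that moved in both genotypes. Over all 18194 genes, 2236 lay at an unadjusted p under 0.05. Of 29 T cell receptor signalling genes, 19 rose in WT and 17 in IkL/L cells, with median steps of 0.90 and 0.74, and 0 interactions were called (4 at an unadjusted p under 0.05). For 30 nuclear oxidative phosphorylation subunits, 18 fell in WT and 15 in IkL/L cells (medians -0.45 and -0.51), again with 0 called and 1 at an unadjusted p under 0.05. Heat shock and handling stress genes, 19 measured, fell in 12 cases in each genotype, with 2 interactions at an unadjusted p under 0.05. Chemokine and migration receptors had a median interaction of 0.34 over 17 genes, with 0 called and 4 at an unadjusted p under 0.05. In WT 5 of them rose and 3 fell, and in IkL/L cells 5 rose and 0 fell.

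Steps that were called in opposite directions numbered 13 genes, of which 7 had a called interaction. Among the rest were Dtx1 and Ncf4, a subunit of the phagocyte oxidase, which fell by 1.24 in WT and rose by 1.01 in IkL/L cells (interaction 2.25, adjusted p = 0.0837). Pdgfrb fell by 2.68 in WT and stepped by -0.40 in IkL/L cells (interaction 2.28, adjusted p = 0.0791). Both were chosen after their values were seen.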
